A study of Mus musculus with 9 samples.

Results

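Variation among muscles of the same genotype was described for the 11549 genes, of 24062 in the count table, that averaged at least 1 CPM (a gene's count over the TMM-scaled library total in Mreads) over 9 libraries of mouse gastrocnemius. For each gene, log2(CPM + 1) in a library minus the mean of its genotype gave a residual, and the residual SD (root of the summed squared residuals over 6 degrees of freedom) measured its spread within genotypes. Genotype means are thereby removed, so no level is compared between genotypes. Spreads and correlations within single genotypes are set side by side in places, with no test between them. The members nearest the threshold were Gkn3, Tnfrsf4 and Ncapg2, each with a mean of 1.002 CPM, and the nearest gene left out was Ccdc149 at 0.999 CPM.

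The muscles came from mice aged 3 months on a mixed 129Sve and C57BL/6 background, with no agent or surgery named in the labels. They formed 3 groups of 3 libraries: wild type (WT), and mice with 1 normal and 1 altered copy of the BubR1 gene, BubR1+/L1002P (hetL1002P) and BubR1+/X753 (hetX753). BubR1, encoded by Bub1b, is a spindle checkpoint protein, and changes in the human gene are linked to mosaic variegated aneuploidy. The labels number the libraries of a genotype 1 to 3 but do not say that each came from a separate animal, so p-values below speak for the spread of these 9 libraries alone, part of which may be technical. Whole muscle was used, so the RNA mixes fibres with fat, vessel, nerve, tendon and blood cells. In bulk RNA, fewer cells of a type and less RNA per cell cannot be told apart. The creatine kinase gene Ckm, a defining marker of muscle, read 22292, 22586 and 26951 CPM for WT, 18699.5, 19674 and 21545 for hetL1002P, and 19929, 20542 and 18458 for hetX753. Here and below the 3 values of a genotype are in the order of replicates 1, 2 and 3. Xist had at most 1 count and the Y-linked Ddx3y had 378 to 1190 counts in every library. The adult globin genes Hba-a1, Hba-a2, Hbb-bs and Hbb-bt were listed at 0 in every library, so globins give no reading of blood content here.

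As background, gastrocnemius is a mixed muscle made mostly of fast fibres, with fewer slow fibres that use their own set of myosins, troponins and calcium handling proteins. The state of the animal also shows in muscle. Feeding, glucocorticoids, the time of day and handling each have well known target genes in muscle, among them clock genes, immediate early genes and FoxO targets. A piece of fat or tendon left on the muscle carries its own marker genes.

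Totals ran from 19768149 to 33977252 counts per library, and 15428 to 15996 genes had a count. At 1 CPM a gene thus rested on about 19.5 to 33.6 counts in a library. WT 3 and hetL1002P 3 stood apart from the other libraries of their genotypes. They held 14.9% and 23.1% of all squared residuals, against 6.35% to 13.3% in each of the other 7 libraries. In both, long transcripts were low and short transcripts high. The median residual of the 10% of genes with the longest transcripts minus that of the 10% with the shortest was -0.49 in WT 3 and -0.56 in hetL1002P 3 on the log2 scale, and lay between -0.14 and 0.36 in the other 7. Libraries of WT and hetL1002P with the same replicate number also deviated together. Those of hetX753 mostly did not follow their numbers, apart from hetX753 2 with WT 2 (r = 0.23 across genes). A replicate block is a fit with replicate number as a further term. Main results that change by over 1.5 times or lose a call with it are therefore given with it too. Results that rest on these libraries are given below also without them or with the length trend removed.

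Most genes varied little. The median residual SD was 0.19 on the log2 scale, and the middle 50% of genes lay between 0.14 and 0.26. Only 304 genes reached 0.5, 21 reached 1, and 1266 stayed under 0.1. An SD on 6 degrees of freedom is itself imprecise, with a 95% interval from 0.644 to 2.2 times its value if residuals are normal. Counting noise made up a median of 15.1% of the residual variance, and more than 50% of it for 1697 genes. The median SD fell from 0.22 at 1 to 2 CPM to 0.16 at 50 to 200 CPM, so each gene was also ranked against the 500 genes nearest to it in mean level. By that ranking 1177 genes (10.2%) were in the top 10% and 1155 (10%) in the lowest 10%. The median SD within a genotype was 0.18 in WT, 0.20 in hetL1002P and 0.13 in hetX753, and these were not tested against each other. Without WT 3 and hetL1002P 3 the median residual SD over all genes was 0.14.

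**Figure D1:**
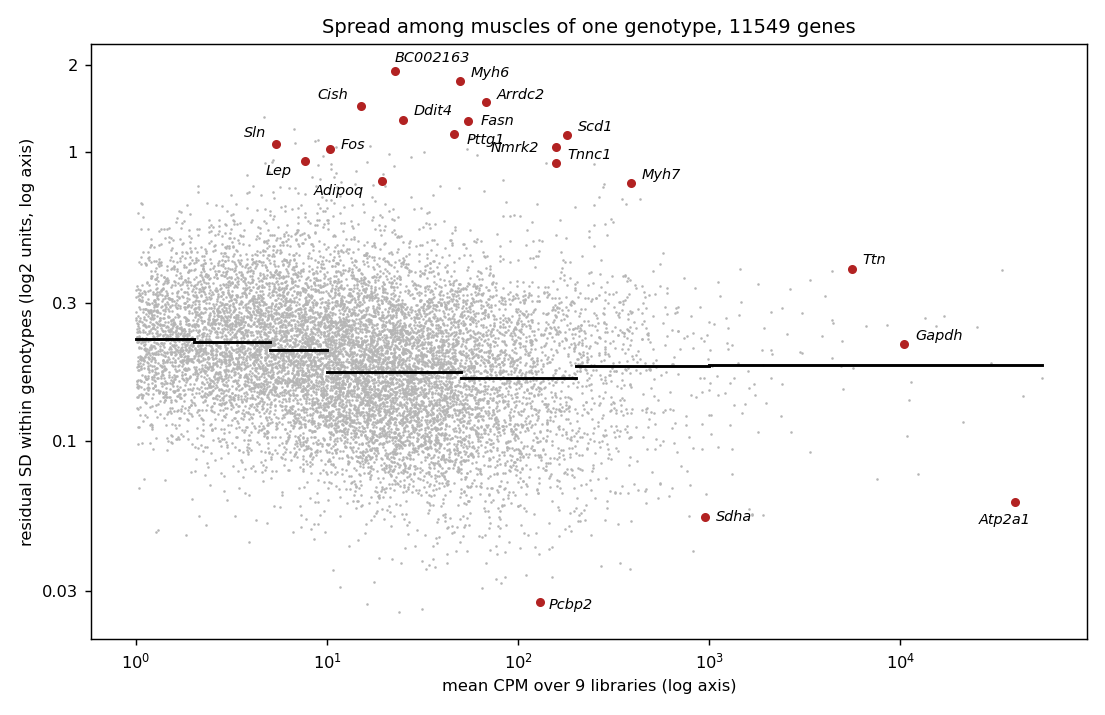
Residual SD of each gene within genotypes (vertical log axis, log2 units) against its mean CPM (horizontal log axis), 1 grey point per gene, with black bars for the median of each level range and red points for named genes. The medians lie between 0.16 and 0.22 at every level, while BC002163 reaches 1.91 and Pcbp2 lies at 0.028.

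Pcbp2, which encodes an RNA-binding protein, had a residual SD of 0.028, the lowest of the 2288 genes at 50 CPM or more, with 128, 124 and 130.4 CPM for WT, 126, 121 and 123 for hetL1002P, and 138, 137 and 137 for hetX753. Counting noise accounted for 86.6% of that variance, so little of the spread in Pcbp2 lay beyond counting noise. The rest of the 12 steadiest were Tor1aip2, Galnt1, Tax1bp1, Eif3c (a translation initiation factor subunit), Tmed10 (a cargo receptor of the early secretory pathway), Nars, Usp47, Nrd1, Pdlim5, Rab14 and Ccdc6, at 0.031 to 0.040. Without 1 library, 4 of them were lower still by over 1.5 times. They were Galnt1 and Tax1bp1 without WT 3, Usp47 without WT 1 and Nars without hetX753 3.

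Genes often used as references differed in steadiness. Of 20 on the list, 2 were in the top 10% for their level and 1 in the lowest, beside 10.2% and 10% of all genes, and their median SD was 0.18 beside 0.19. Sdha, the catalytic subunit of succinate dehydrogenase, was the steadiest at 0.054 (0.028 without hetX753 3), with 955, 965 and 926 CPM for WT, 1007, 976 and 999.7 for hetL1002P, and 884, 857 and 961 for hetX753. Gapdh, the glycolytic enzyme, had an SD of 0.22, Actb 0.17, Hprt 0.20 and Tbp 0.18, the last 0.11 without hetX753 3. Without WT 3 and hetL1002P 3 these SDs were 0.057, 0.17, 0.092 and 0.23, in that order, and that of Sdha was 0.069. The order of steadiness thus depended on those 2 libraries. Tfrc, the transferrin receptor, was less steady at 0.35, and 94.9% of its squared residuals came from WT. It read 142, 95 and 61.4 CPM for WT, 131, 136 and 136 for hetL1002P, and 112, 134 and 119 for hetX753. Without WT 3 its SD was 0.20.

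At the other end stood genes that were nearly off in some muscles and on in others of the same genotype. BC002163 had the highest SD at 1.91, with 0.566, 0.565 and 0.867 CPM for WT, 0.355, 0.287 and 68.5 for hetL1002P, and 53.5, 40 and 39.6 for hetX753. Within hetL1002P only replicate 3 was high, and without that library the SD was 0.18. AA465934 (chr11:83291699-83294637) was low in WT 1, WT 3 and hetL1002P 1 and at least 8.29 CPM in the other 6 libraries. Its values were 0.506, 11.6 and 0.433 CPM for WT, 0.355, 8.29 and 13.9 for hetL1002P, and 25.5, 20.9 and 8.79 for hetX753, and its SD was 1.54. Pttg1 (chr11:43420244-43427463), which encodes securin, the protein that keeps separase inactive until anaphase, was low in 1 library. Its values were 58.7, 61.9 and 82.4 CPM for WT, 48.1, 44.2 and 67.6 for hetL1002P, and 27.3, 1.38 and 21.2 for hetX753, with an SD of 1.16 that dropped to 0.28 without hetX753 2. Coordinates here are those of RefSeq genes on GRCm38.p6, a release of the build mm10.

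In 16 genes the highest and lowest library of one genotype differed at least 10-fold, with the highest at 3 CPM or more. Cish (chr9:107296659-107302784), a cytokine-induced inhibitor of JAK and STAT signalling, read 2.47, 3.91 and 12.8 CPM for WT, 64.8, 2.55 and 35.3 for hetL1002P, and 5.72, 2.73 and 5.15 for hetX753. It was high in hetL1002P 1 and 3 and 25.4-fold lower in hetL1002P 2 than in hetL1002P 1, and its SD of 1.44 fell to 0.77 without that library. Erdr1 (chrX:170010526-170018797), near the end of the X chromosome, was 17.0-fold lower in WT 2 than in WT 1 and differed by 1.16-fold at most in hetX753. Without WT 2 its SD of 1.04 was 0.46. Rab6b (chr9:103111667-103185276), a small GTPase of Golgi traffic, read 11.5, 8.17 and 6.79 CPM for WT, 11, 12.9 and 1.8 for hetL1002P, and 0.899, 7.39 and 0.644 for hetX753. It was under 2 CPM in hetL1002P 3, hetX753 1 and hetX753 3 and above 6 CPM in the other 6. Nmrk2 and Eno1b were not among these 16 genes but also varied widely. Nmrk2, a muscle nicotinamide riboside kinase of NAD synthesis, read 299.6, 136 and 128 CPM for WT, 114, 71.1 and 464 for hetL1002P, and 119, 35.1 and 44.1 for hetX753. Its widest range was 6.52-fold, in hetL1002P, where replicate 3 was highest. Eno1b, a copy of the enolase gene, read 0.953, 0.822 and 0.433 CPM for WT, 1.06, 0.502 and 1.23 for hetL1002P, and 21.7, 2.17 and 17.3 for hetX753. How reads shared by enolase copies were counted is not given in the sources used here. Within hetX753, Eno1b was lowest in replicate 2. Its SD of 0.93 was 0.26 without hetX753 2.

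**Figure D2:**
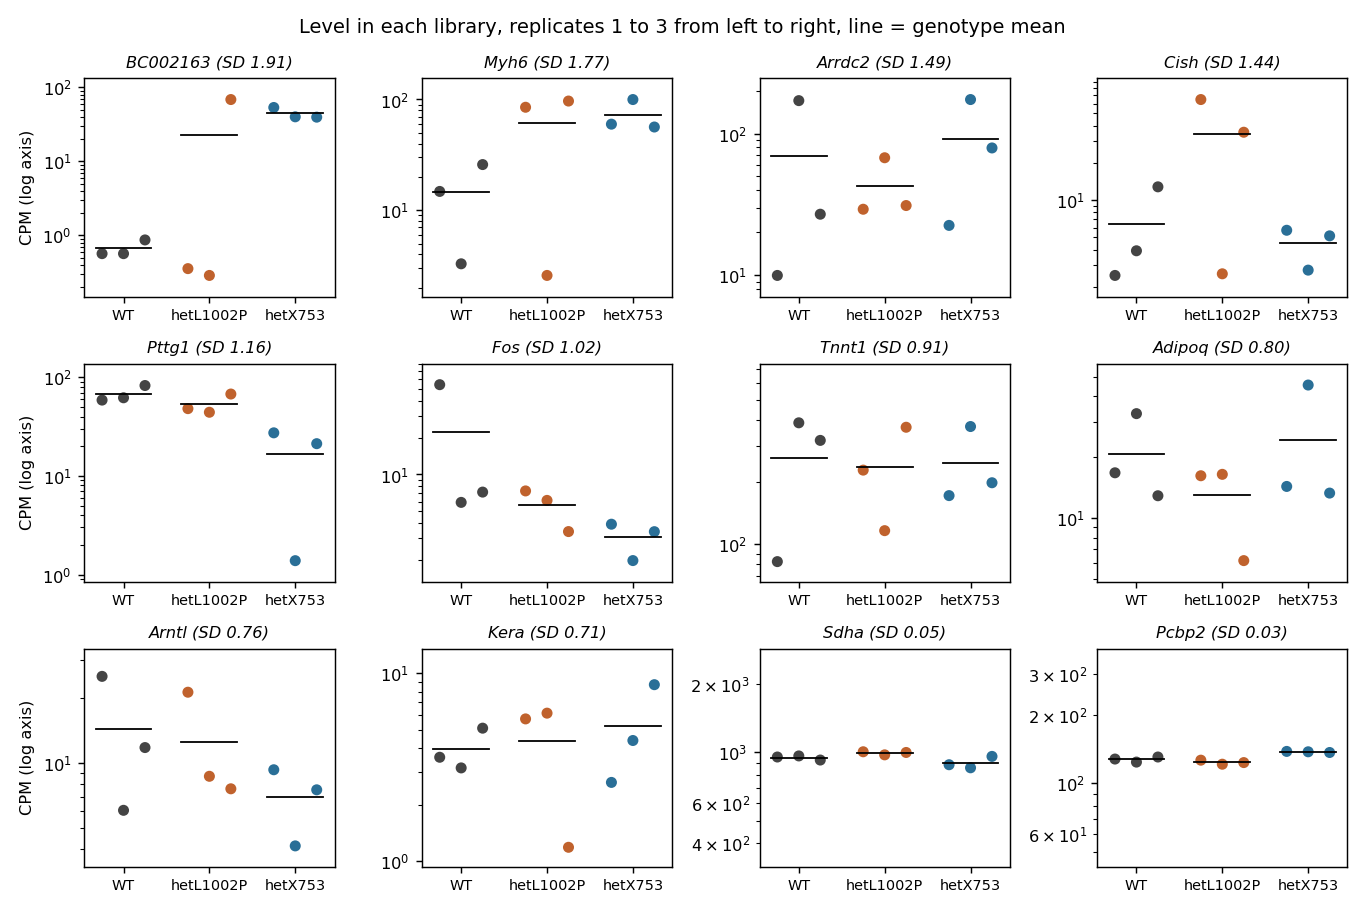
CPM of 12 genes in each library (vertical log axes, 1 point per library, replicates 1 to 3 from left to right, coloured by genotype) with the arithmetic mean of each genotype as a line. BC002163, Pttg1 and Fos depend on 1 library each, Tnnt1, Arrdc2 and Adipoq are spread within every genotype, and Sdha and Pcbp2 lie on their means.

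Genes in the top 10% for their level in WT and in hetL1002P shared 399 members, 34.2% and 34.0% of each set. The overlaps with hetX753 were 357 and 359 genes, 30.6% to 31.0% of each set. In all, 159 genes (1.38%) were in the top 10% in each genotype separately, and leaving out 1 library gave 102 (without hetX753 2) to 150. Conversely, 341 genes (2.95%) had over 90% of their squared residuals in a single genotype. The most variable of the 159 among the named genes were Myh6, AA465934, Arrdc2, Cish, Ddit4, Fasn, Scd1, Pck1, Sln, Nmrk2, Slc25a25 and Fos. Of the lists examined, slow fibre genes gave 10 of 15 measured members to these 159 and adipocyte markers 9 of 18. Glucocorticoid response genes gave 5 of 18. Each share stands beside 1.38% of all genes. Ribosomal, proteasome, fast fibre and fibroblast lists gave none, as did many other lists. With 18 to 46 measured genes in each of these 4, that is near the share of all genes.

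**Figure D3:**
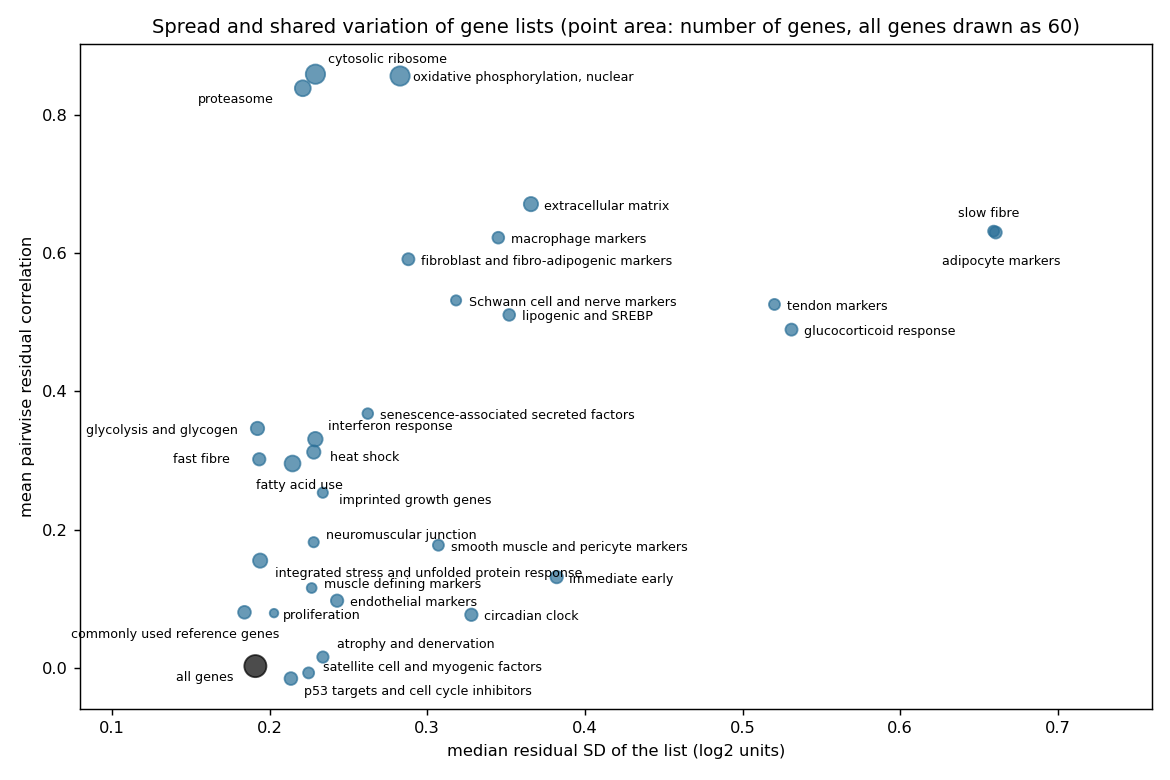
Median residual SD of each gene list (horizontal axis, log2 units) against the mean correlation of residuals between its members (vertical axis), point area by number of genes. Slow fibre and adipocyte lists lie far right at 0.66, ribosome, proteasome and oxidative phosphorylation lists lie at the top above 0.8, and all genes lie at 0.19 and 0.003.

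Slow fibre genes varied widely. All 15 on the list were measured. Their median SD was 0.66, and 14 were in the top 10% for their level, where 10.2% of all genes were. The slow troponin subunits stood highest. Tnnt1, the slow tropomyosin-binding subunit, read 82.5, 386 and 318 CPM for WT, 228, 116 and 368 for hetL1002P, and 172, 371 and 198 for hetX753. It was lowest in WT 1 and hetL1002P 2, where it was 4.68-fold and 3.16-fold under the highest library of the genotype, and in hetX753 it was highest in replicate 2. Tnnc1, the calcium-binding subunit of slow and cardiac muscle, read 54, 251 and 232 CPM for WT, 139, 66.9 and 231 for hetL1002P, and 126, 209 and 115 for hetX753. Tnni1, the slow inhibitory subunit, read 43.3, 199 and 193 CPM for WT, 115, 66.8 and 206 for hetL1002P, and 118, 212 and 101 for hetX753. Their SDs were 0.91, 0.92 and 0.92, and all 3 were lowest in WT 1 and hetL1002P 2 and highest in WT 2, hetL1002P 3 and hetX753 2 of their genotypes. Tpm3, slow tropomyosin, followed the same order in WT and hetL1002P, with 100.2, 413 and 305 CPM for WT, 248, 138 and 353 for hetL1002P, and 269, 449.5 and 267 for hetX753.

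The 250 bases before the start of these 3 troponin genes are shown because the genes lie on different chromosomes and were high in the same libraries. They are from RefSeq on GRCm38.p6, 5′ to 3′ in the direction of the gene. Capitals mark the searched motifs on either strand: the TATA box TATAAA, the E-box CACGTG, and the half-site TGACG of the cAMP response element. Also searched were the whole element TGACGTCA (in 2.76% of all stretches), which contains the half-site, the D-box TTATGTAA (0.365%) and the heat shock element GAANNTTC (4.97%), none of which the stretches printed here hold. The metal response core TGCNCNC was in 53.1% of stretches and is not marked. Tnnt1 is on the minus strand at chr7:4515976-4516225, Tnnc1 on the plus strand at chr14:31208062-31208311 and Tnni1 on the plus strand at chr1:135799261-135799510.
Tnnt1: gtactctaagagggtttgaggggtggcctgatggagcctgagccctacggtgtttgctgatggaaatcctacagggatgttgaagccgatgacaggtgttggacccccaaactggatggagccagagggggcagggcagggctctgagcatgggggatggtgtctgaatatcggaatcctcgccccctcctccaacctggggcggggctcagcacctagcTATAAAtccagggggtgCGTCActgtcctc
Tnnc1: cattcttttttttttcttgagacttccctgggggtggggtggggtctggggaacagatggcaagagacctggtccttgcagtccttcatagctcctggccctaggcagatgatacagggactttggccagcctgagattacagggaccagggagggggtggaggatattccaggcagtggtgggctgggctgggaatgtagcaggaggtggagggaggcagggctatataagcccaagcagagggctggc
Tnni1: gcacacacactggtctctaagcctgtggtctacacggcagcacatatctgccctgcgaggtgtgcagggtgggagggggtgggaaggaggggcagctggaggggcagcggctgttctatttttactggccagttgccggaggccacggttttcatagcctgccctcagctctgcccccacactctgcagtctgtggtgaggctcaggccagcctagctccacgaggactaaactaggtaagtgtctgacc
The Tnnt1 stretch holds the TATA box and the half-site, and the other 2 hold none of these 3 motifs. Of the 8768 member genes with such a stretch, 6.38% held the TATA box and 27.9% the half-site.

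Slow myosin heavy chain genes varied as well. Myh7, the main slow heavy chain, read 139, 685 and 205 CPM for WT, 469, 296 and 434 for hetL1002P, and 310.3, 613 and 332 for hetX753, with an SD of 0.78 that was 0.44 without WT 2. Its residuals and those of Tnnt1 had r = 0.78 (Spearman 0.83) over 9 libraries, and that pair did not pass (adjusted p = 0.153, exact permutation within genotypes, 2-sided, adjusted over 11 pairs). Without the 2 libraries farthest out for Myh7, WT 2 and hetX753 2, r was 0.76. Myh6, the alpha heavy chain of heart, lies beside Myh7 (chr14:54941921-54968017) and is close to it in sequence, and how reads shared by such copies were counted is not given in the sources used here. It read 14.8, 3.29 and 25.9 CPM for WT, 85.1, 2.58 and 96.8 for hetL1002P, and 59.9, 99.8 and 56.4 for hetX753. Its SD of 1.77, the second highest after BC002163, was 0.91 without hetL1002P 2, where it was 37.5-fold under hetL1002P 3. In hetL1002P 1 and 3 it was high while Myh7 differed by at most 1.58-fold between the 3 libraries. Sln, sarcolipin, which inhibits the calcium pump SERCA, read 0.863, 5.14 and 4.0 CPM for WT, 5.4, 2.19 and 21.7 for hetL1002P, and 1.29, 5.1 and 3.08 for hetX753, highest in hetL1002P 3.

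Fast fibre genes had a median SD of 0.19, that of all genes. Of 19 measured, 2 were in the top 10% and 3 in the lowest 10% for their level, beside 10.2% and 10% of all genes. Atp2a1, the fast calcium pump SERCA1, had an SD of 0.06, and Ckm 0.12. Without WT 3 and hetL1002P 3 these were 0.03 and 0.06. Myh4, the heavy chain of the fastest fibres, had an SD of 0.16 and Myh2, of fast oxidative fibres, 0.35. Myh2 read 1704, 2341 and 1136 CPM for WT, 2902, 1987 and 2077 for hetL1002P, and 1391, 1386 and 1314 for hetX753, lowest in WT 3. Residuals of Myh2 and Myh4 had r = 0.56 (Spearman 0.62), which did not pass (adjusted p = 0.382, same exact permutation test), and r was -0.12 without WT 3. The tropomyosin gene Tpm1 was the least steady at 0.39. The giant sarcomere gene Ttn had an SD of 0.39, and 91.4% of its squared residuals were in WT. It read 5948, 5305 and 2583 CPM for WT, 6549.5, 5486 and 5138 for hetL1002P, and 6045, 6761 and 6179 for hetX753. Without WT 3 the SD was 0.13.

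Fat genes had the same median SD as slow fibre genes. Of 20 adipocyte markers 18 were measured, with a median SD of 0.66, and 16 were in the top 10% beside 10.2% of all genes. Adipoq, the fat cell hormone adiponectin, read 16.8, 32.9 and 12.9 CPM for WT, 16.2, 16.5 and 6.16 for hetL1002P, and 14.3, 45.6 and 13.3 for hetX753. Plin1, which coats lipid droplets of fat cells, read 9.14, 18.2 and 5.2 CPM for WT, 10.2, 13.9 and 2.42 for hetL1002P, and 8.41, 18.3 and 8.61 for hetX753. Both were highest in WT 2 and hetX753 2 and lowest in WT 3 and hetL1002P 3. Their residuals had r = 0.92 (Spearman 0.90) and passed (adjusted p = 0.034, exact permutation within genotypes, 2-sided, adjusted over 11 pairs). By Spearman the adjusted p was 0.0509, and r was 0.94 without the 2 farthest libraries, WT 2 and hetX753 2. The call was lost with a replicate block, at r = 0.58 (adjusted p = 0.334, same permutation test, only approximate for this fit). The SDs of Adipoq and Plin1, 0.80 and 0.87, were then 0.42 and 0.44. Without WT 3 and hetL1002P 3 they were 0.75 and 0.55. With any 1 library left out, no pair of the 11 passed, and the lowest adjusted p rose to 0.0764 (exact permutation). The shuffles then fall to 72 and the smallest possible p is 0.0139. Several of the 11 pairs would have to reach it before any passed, so this check decides little. Lep, leptin, read 3.54, 7.14 and 3.51 CPM for WT, 5.88, 3.66 and 1.23 for hetL1002P, and 4.57, 31.3 and 8.51 for hetX753, 6.86-fold apart within hetX753. Cidec, a lipid droplet fusion protein, was highest in the same library at 59.8 CPM. The least variable marker was Fabp4, a fatty acid carrier also present in endothelium, with an SD of 0.22 (0.13 without hetX753 2). The residuals of the 18 had a mean pairwise r of 0.63, beside 0.003 over all genes, 0.65 with the length trend removed and 0.31 with a replicate block.

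Scd1, the stearoyl-CoA desaturase, read 139, 295 and 70.3 CPM for WT, 193, 308 and 59.9 for hetL1002P, and 66.9, 355 and 137 for hetX753 and was highest in replicate 2 of every genotype. Fasn, fatty acid synthase, read 43.5, 138 and 13 CPM for WT, 54.1, 145 and 19.7 for hetL1002P, and 18, 33.8 and 25.9 for hetX753. It too was highest in replicate 2, by 10.6-fold over the lowest library in WT and 7.37-fold in hetL1002P but only 1.88-fold in hetX753. Acly, which makes cytosolic acetyl-CoA, read 16.3, 32.8 and 9.58 CPM for WT, 19.1, 42.9 and 8.39 for hetL1002P, and 11.9, 14.4 and 15.4 for hetX753. Of 17 measured lipogenic and SREBP genes, 9 were in the top 10% beside 10.2% of all genes. The lipogenic and adipocyte lists share 4 genes, Acaca, Fasn, Scd1 and Thrsp. Pck1, an enzyme of glyceroneogenesis in fat, read 6.01, 22.3 and 2.12 CPM for WT, 7.18, 6.14 and 1.99 for hetL1002P, and 5.93, 21.9 and 7.18 for hetX753. With a replicate block the SDs of Scd1, Fasn and Pck1, 1.15, 1.28 and 1.1, were 0.71, 0.82 and 0.69. Without WT 3 and hetL1002P 3 those of Fasn and Acly, 1.28 and 0.81, were 0.83 and 0.54.

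Genes that glucocorticoids are known to raise in muscle moved together, though not in every genotype. All 18 members in the table were measured. Their median SD was 0.53, and 15 were in the top 10% beside 10.2% of all genes. Ddit4, an inhibitor of mTORC1, read 8.37, 49.4 and 7.17 CPM for WT, 8.44, 26 and 6.49 for hetL1002P, and 9.74, 43.6 and 65.1 for hetX753. Per1, a clock gene and a direct receptor target, read 12.2, 92.9 and 36 CPM for WT, 45, 69.5 and 43.3 for hetL1002P, and 37.5, 103 and 112 for hetX753. Cebpd, a transcription factor gene, read 9.08, 44 and 12.8 CPM for WT, 16.5, 14.6 and 11.3 for hetL1002P, and 8.95, 18 and 22.1 for hetX753, and its SD of 0.77 was 0.46 without WT 2. Pdk4, which restrains glucose oxidation on fasting, read 107, 359.7 and 163 CPM for WT, 195, 81.8 and 178 for hetL1002P, and 265, 464 and 686 for hetX753. WT 2 was the highest WT library for all 4. The mean pairwise r of the list was 0.49, and 0.73 within WT, 0.53 within hetX753 and 0.04 within hetL1002P, and these were not tested against each other. Without WT 2 it was 0.27. Pdk4 and Angptl4, both targets of PPARs, had r = 0.20 (Spearman 0.23) and did not pass (adjusted p = 0.648, same exact permutation test), and r was -0.10 without WT 2.

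Arrdc2, of the alpha-arrestin family, read 9.94, 171 and 26.9 CPM for WT, 29.2, 67.4 and 31 for hetL1002P, and 22.4, 174 and 79.1 for hetX753, with an SD of 1.49, the fourth highest. It was 17.2-fold higher in WT 2 than in WT 1 and 7.74-fold higher in hetX753 2 than in hetX753 1. Slc25a25, a calcium-sensitive ATP and phosphate carrier of mitochondria, read 12.4, 69.6 and 21.7 CPM for WT, 19.3, 37.1 and 29 for hetL1002P, and 30.6, 141 and 125 for hetX753. Arrdc3 read 15.8, 48.8 and 19.7 CPM for WT, 15.5, 30.1 and 17.7 for hetL1002P, and 16.8, 42.7 and 40.6 for hetX753. With a replicate block the SDs of Arrdc2, Slc25a25 and Arrdc3, 1.49, 1.03 and 0.70, were 0.77, 0.56 and 0.36. These 3, Per1, Cebpd, Pdk4 and Myh7 fell into one group of 21 genes by clustering. Its mean r was 0.95 within WT and 0.83 within hetX753 but -0.03 within hetL1002P.

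Metallothioneins gave another linked pair. Mt1 read 11.3, 21.9 and 15.1 CPM for WT, 10.4, 8.32 and 16.1 for hetL1002P, and 10, 17.1 and 15 for hetX753 and Mt2 read 3.36, 10.4 and 5.01 CPM for WT, 3.47, 3.62 and 4.79 for hetL1002P, and 2.05, 7.39 and 5.2 for hetX753. These small zinc-binding proteins are encoded side by side and respond to zinc and glucocorticoids. Their residuals had r = 0.88 (Spearman 0.87) and passed (adjusted p = 0.034, exact permutation within genotypes, 2-sided, adjusted over 11 pairs). By Spearman the adjusted p was 0.0509 (same permutation test). Without the 2 farthest libraries, WT 2 and hetL1002P 3, r was 0.89. With a replicate block r was 0.91 and the pair no longer passed (adjusted p = 0.0679, same permutation test, only approximate for this fit).

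Arntl, the activator of the clock, read 25.3, 6.07 and 11.8 CPM for WT, 21.4, 8.72 and 7.63 for hetL1002P, and 9.35, 4.15 and 7.55 for hetX753. Its target Dbp read 36, 98.1 and 74.8 CPM for WT, 42.4, 86.1 and 143 for hetL1002P, and 109.7, 78.1 and 105 for hetX753, and Ciart, a repressor of the activator, read 1.91, 11.5 and 10.2 CPM for WT, 3.23, 7.82 and 10.1 for hetL1002P, and 7.87, 9.05 and 13.4 for hetX753. In WT 1 and hetL1002P 1 Arntl was highest of its genotype while Dbp and Ciart were lowest. Residuals of Arntl and Dbp had r = -0.76 (Spearman -0.58) and did not pass (adjusted p = 0.153, same exact permutation test), and r was -0.29 without WT 1 and hetL1002P 1. Per2 and Nr1d1, both repressors, had r = -0.71 (Spearman -0.82) and did not pass (adjusted p = 0.0764, same exact permutation test). Of 19 clock genes measured, 10 were in the top 10% beside 10.2% of all genes. Tef, a relative of Dbp, was steady at 0.07. The mean pairwise r was 0.08, and 0.15 with a replicate block. This mean keeps the sign, so pairs that moved in opposite directions, such as Arntl and Dbp, lower it. A value near that of all genes thus does not show that clock genes varied separately. Ciart's SD of 0.82 was 0.52 without WT 1 and 0.49 with the block, and Arntl's SD of 0.76 was 0.38 with it.

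The promoters of Per1 and Ciart are shown because their genes are outputs of the clock activator, which binds the E-box, and both were lowest in WT 1. The Per1 stretch is on the plus strand at chr11:69098699-69098948 and that of Ciart on the minus strand at chr3:95882229-95882478, in GRCm38.p6. Capitals mark the motifs named above.
Per1: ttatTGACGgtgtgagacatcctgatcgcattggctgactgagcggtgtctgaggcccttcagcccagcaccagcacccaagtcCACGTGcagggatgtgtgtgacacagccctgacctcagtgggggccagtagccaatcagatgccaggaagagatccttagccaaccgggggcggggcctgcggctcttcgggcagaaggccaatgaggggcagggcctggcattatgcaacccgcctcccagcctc
Ciart: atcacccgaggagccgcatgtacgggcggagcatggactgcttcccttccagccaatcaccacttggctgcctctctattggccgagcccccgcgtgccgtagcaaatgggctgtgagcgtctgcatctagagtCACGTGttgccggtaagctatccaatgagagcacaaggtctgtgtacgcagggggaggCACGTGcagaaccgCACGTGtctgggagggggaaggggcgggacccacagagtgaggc
A script found 1 E-box in the Per1 stretch and 3 in that of Ciart. The E-box was found in 5 of 16 clock genes with a stretch and in 8.87% of all 8768. A match is a description of the letters, not of binding.

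Immediate early genes, which rise within minutes of a stimulus, had wide ranges at the top of the list. Fos, a subunit of the AP-1 transcription factor, read 54.2, 5.91 and 7.17 CPM for WT, 7.33, 6.14 and 3.41 for hetL1002P, and 3.92, 1.98 and 3.41 for hetX753. It was 9.17-fold higher in WT 1 than in WT 2, the lowest of that genotype. Its SD of 1.02 was 0.39 without WT 1. Egr1, a zinc finger factor gene, read 33.3, 9.1 and 8.09 CPM for WT, 10.3, 6.49 and 3.79 for hetL1002P, and 14.2, 2.89 and 6.21 for hetX753, again highest in WT 1. Residuals of Fos and Egr1 had r = 0.85 (Spearman 0.83) and passed (adjusted p = 0.034, exact permutation within genotypes, 2-sided, adjusted over 11 pairs). By Spearman the adjusted p was 0.0509 (same permutation test). The call was lost with a replicate block, at r = 0.66 (adjusted p = 0.127, same permutation test, only approximate for this fit). The SD of Egr1, 0.91, was then 0.48. Without WT 1 and WT 2 r was 0.86. Of 19 measured genes, 11 were in the top 10% beside 10.2% of all genes. Jun, the partner of Fos, had an SD of 0.19, near the median of all genes, and Atf3 read 2.92, 4.16 and 2.99 CPM for WT, 9.66, 3.44 and 5.07 for hetL1002P, and 7.98, 5.02 and 11.2 for hetX753 with no peak in WT 1. The mean pairwise r was 0.13, 0.06 without hetX753 3 and 0.21 with a replicate block.

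The Fos promoter is shown because Fos had the highest SD of the list. It lies on the plus strand at chr12:85473640-85473889 in GRCm38.p6, with capitals for the motifs named above.
Fos: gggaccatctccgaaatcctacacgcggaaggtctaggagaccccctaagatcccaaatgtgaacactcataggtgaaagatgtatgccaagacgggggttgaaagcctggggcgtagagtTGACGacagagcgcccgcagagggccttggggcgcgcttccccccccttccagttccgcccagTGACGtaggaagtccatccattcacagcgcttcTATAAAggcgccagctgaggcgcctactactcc
It holds a TATA box and 2 half-sites of the cAMP response element. The half-site was found in 7 of 16 immediate early genes with a stretch, beside 27.9% of all.

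Connective tissue genes were low in hetL1002P 3 of its genotype. Of 15 measured tendon markers 11, and of 25 matrix genes 18, were in the top 10% beside 10.2% of all genes. Kera, a small proteoglycan of tendon, read 3.57, 3.14 and 5.1 CPM for WT, 5.72, 6.14 and 1.18 for hetL1002P, and 2.62, 4.39 and 8.7 for hetX753, and Chad, chondroadherin, read 9.8, 10.8 and 13.9 CPM for WT, 14.6, 9.44 and 3.79 for hetL1002P, and 3.02, 5.81 and 9.89 for hetX753. Fmod, fibromodulin, read 99.3, 94.9 and 102 CPM for WT, 143, 139 and 50.9 for hetL1002P, and 47.1, 68.6 and 114 for hetX753, and its SD of 0.61 was 0.40 without hetL1002P 3. Within hetX753, replicate 1 was lowest for all 3 and replicate 3 highest. Scx, a transcription factor of tendon cells, did not follow and had an SD of 0.14. The fibrillar collagen genes Col1a1, Col1a2 and Col3a1 had SDs of 0.49, 0.51 and 0.42, and 0.24, 0.21 and 0.20 without hetL1002P 3. Col1a1 read 157, 154 and 124 CPM for WT, 216, 185 and 79.4 for hetL1002P, and 74.5, 107 and 108 for hetX753. Col1a1 and Col3a1 had r = 0.86 (Spearman 0.68) and did not pass (adjusted p = 0.21, same exact permutation test). The mean pairwise r of matrix genes was 0.67, 0.56 with the length trend removed, and 0.29 without WT 3 and hetL1002P 3. For tendon markers it was 0.53, 0.51 and 0.50. Within single genotypes the tendon value was -0.006 in WT, 0.62 in hetL1002P and 0.55 in hetX753. That of matrix genes was 0.49, 0.77 and 0.34, with no test between genotypes.

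Of 17 macrophage markers 7 were in the top 10% beside 10.2% of all genes. Cd163, a scavenger receptor of tissue macrophages, read 4.44, 10.6 and 5.68 CPM for WT, 8.64, 11.4 and 2.99 for hetL1002P, and 4.53, 8.74 and 6.58 for hetX753. The mean pairwise r of the list was 0.62, or 0.71 without WT 3 and hetL1002P 3. It was 0.69 within WT and 0.80 within hetL1002P but -0.02 within hetX753, and these were not tested against each other. Of 22 heat shock genes 1 was in the top 10%, below the share of all genes. Hspa1a and Hspa1b, near-identical copies whose reads may be split between them, had r = 0.84 (Spearman 0.82) and did not pass (adjusted p = 0.0917, same exact permutation test). The Hspa1a SD of 0.38 was 0.16 without hetL1002P 1. The interferon-inducible GTPase gene Iigp1 read 4.41, 3.7 and 13.5 CPM for WT, 3.71, 3.44 and 4.55 for hetL1002P, and 40.1, 23.4 and 33.1 for hetX753, and its SD of 0.57 was 0.27 without WT 3. Atrophy ligase genes Fbxo32 and Trim63 had SDs of 0.31 and 0.17 (the latter 0.11 without WT 1), with r = 0.62 (Spearman 0.60, adjusted p = 0.215, same exact permutation test).

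Genes of large complexes moved mostly together, most closely in WT and hetL1002P, with median SDs above the 0.19 of all genes. The 46 nuclear genes of oxidative phosphorylation had a median SD of 0.28 and a mean pairwise r of 0.86. For 46 cytosolic ribosomal genes these were 0.23 and 0.86, and for 31 proteasome genes 0.22 and 0.84. In the top 10% for their level were 13 oxidative phosphorylation, 1 ribosomal and 1 proteasome gene, beside 10.2% of all genes. Within hetX753 the mean pairwise r of the 3 lists, in that order, was 0.44, 0.80 and 0.45. It was 0.90, 0.94 and 0.98 within WT, and 0.97, 0.87 and 0.89 within hetL1002P, with no test between genotypes. Cox4i1, a subunit of cytochrome c oxidase, read 709, 801 and 1238 CPM for WT, 586, 519 and 935 for hetL1002P, and 668, 632 and 549 for hetX753. Rps9, of the small ribosomal subunit, read 364, 403 and 558 CPM for WT, 296, 254 and 425 for hetL1002P, and 342, 336 and 271 for hetX753, and Psmb1, of the proteasome core, read 113, 112 and 185 CPM for WT, 94.4, 86.2 and 138 for hetL1002P, and 110.0, 99.9 and 93.3 for hetX753. All 3 were highest in WT 3 and hetL1002P 3 among their genotypes, the libraries in which short transcripts were high. With the length and GC trend removed the mean pairwise r was 0.51, 0.31 and 0.59 for the 3 lists. Without those 2 libraries it was 0.51, 0.78 and 0.25. With library totals in place of TMM it was 0.64, 0.66 and 0.57. Some members did not follow. Sdha was level as given above, Rpl5 had an SD of 0.090 and Psmd1 one of 0.094.

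The main axis of variation among muscles of a genotype had the same relation to length. The first component of the residuals held 50.8% of their variance, with scores of -20.7 in WT 3, -29.7 in hetL1002P 3 and -7.55 in hetX753 1, and 20.4 in hetL1002P 2 at the other end. Across 11081 genes with a transcript length, the correlation of a gene with this component had a Spearman rho of 0.61 with log2 length and -0.15 with GC content. Genes are not independent replicates, and this is a description. With the trend on length and GC content removed, the first component held 41.8%, and without WT 3 and hetL1002P 3 it held 37.6%. The second component (16.1%) was high in WT 2 and hetX753 2 and low in WT 1 and hetX753 1. Arrdc2, Ddit4, Scd1, Chac1, Slc25a25, Per1, Lep and Tnnt1 were at its high end, and Pttg1, Nmrk2, Erdr1, Fos, Arntl and Egr1 at its low end. The third (10.7%) was high in WT 3 and hetX753 3, with Pttg1, Cyp26b1, Ccl8, Angptl7, Kera, Chad, Wif1 and Tnmd at its high end.

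**Figure D4:**
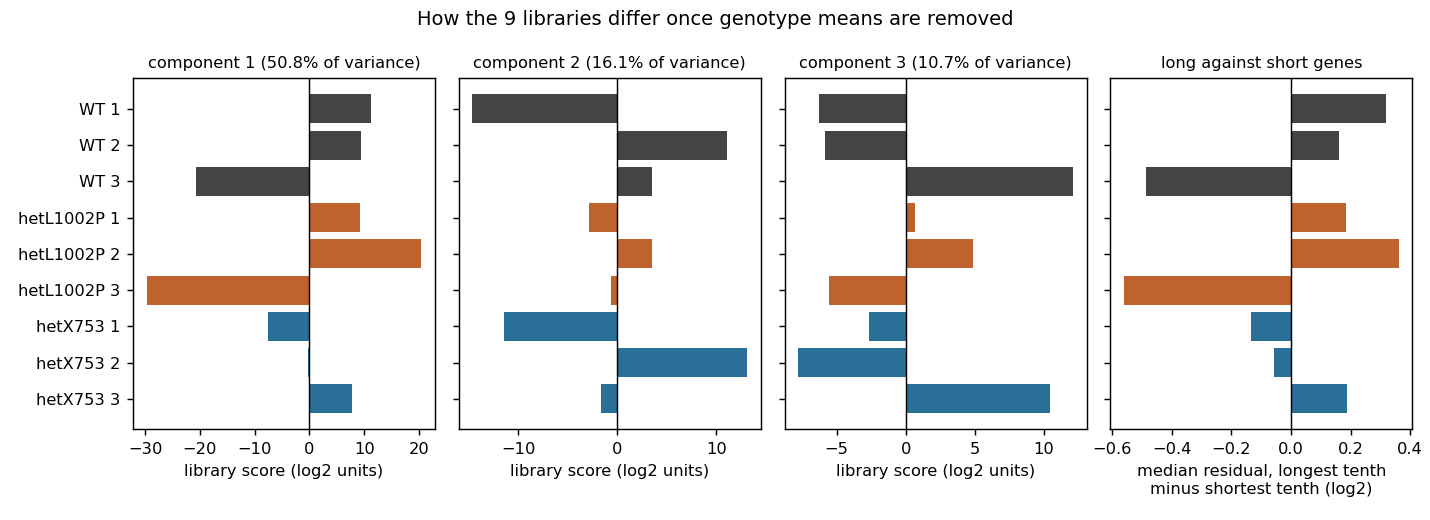
Score of each library on the first 3 components of the residuals, and, at the right, the median residual of the longest 10% of transcripts minus the shortest 10% (log2 units), bars coloured by genotype. WT 3 and hetL1002P 3 are at the low end of both the first and the last panel, with -20.7 and -29.7, and -0.49 and -0.56.

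Clustering the 500 genes of highest SD by the correlation of their residuals gave 10 groups of at least 10 genes, with 417 genes in all. Since groups were formed from these correlations, their mean r only describes them. The correlations are over all 9 libraries, and not every group varied together within each genotype. Mean r was -0.03 within hetL1002P for group 6, -0.03 within WT for group 4 and 0.05 within hetX753 for group 10. For all other groups and genotypes it was at least 0.34. Group 1 had 182 genes, among them Mettl21e, Pdpr, Nos1 (neuronal nitric oxide synthase of fibres) and C7. The SDs of Pdpr and C7, 0.96 and 0.91, were 0.58 and 0.52 without hetL1002P 3. Its median transcript length was 6324.5 bases against 3450 for all genes, and its mean r fell from 0.83 to 0.35 without WT 3 and hetL1002P 3. Nos1 read 11, 10.9 and 3.32 CPM for WT, 26, 35.2 and 6.26 for hetL1002P, and 13.5, 12.4 and 26.9 for hetX753. Its SD of 0.93 was 0.44 without WT 3 and hetL1002P 3. Group 2 had 65 genes around Scd1, Lep, Adipoq and Plin1, and its mean r of 0.82 was 0.80 without those libraries. Group 3 (48 genes) held Ddit4, Fasn, Angptl7, Cd163 and Gadd45g, and group 6 (21 genes) Arrdc2, Per1, Myh7 and Pdk4. Group 5 had 23 genes, 8 of them from the slow fibre list of 15, with Sln and Chac1, which breaks down glutathione and whose SD of 1.12 was 0.65 without WT 1.

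Group 4 (27 genes) was highest in hetL1002P 3, with a mean residual of 0.95. Besides BC002163 and Nmrk2 it held Odc1 and Smox, enzymes of polyamine metabolism. Odc1 read 204, 174 and 315 CPM for WT, 131, 109.5 and 357 for hetL1002P, and 226, 124 and 134 for hetX753, and its SD of 0.65 was 0.42 without that library. Smox read 728, 529 and 516 CPM for WT, 232, 263 and 894 for hetL1002P, and 296, 263 and 164 for hetX753, and its SD of 0.69 was 0.33 without it. Group 9 (11 genes), with Fos, Arntl and Pim1, had a mean residual of 0.82 in WT 1 and -0.74 in WT 2, and its mean r of 0.77 was 0.64 without WT 2 and 0.38 with a replicate block. Group 8 (14 genes) held the tendon genes Kera, Chad, Fmod and Tnmd. Group 10 (11 genes), with Ccl8, Iigp1, Rpl34 and Fhl3, peaked in WT 3, and its mean r of 0.71 was 0.33 without it. Group 7 (15 genes) held Egr1, Xirp1 and Kdr, the main VEGF receptor of endothelium.

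**Figure D5:**
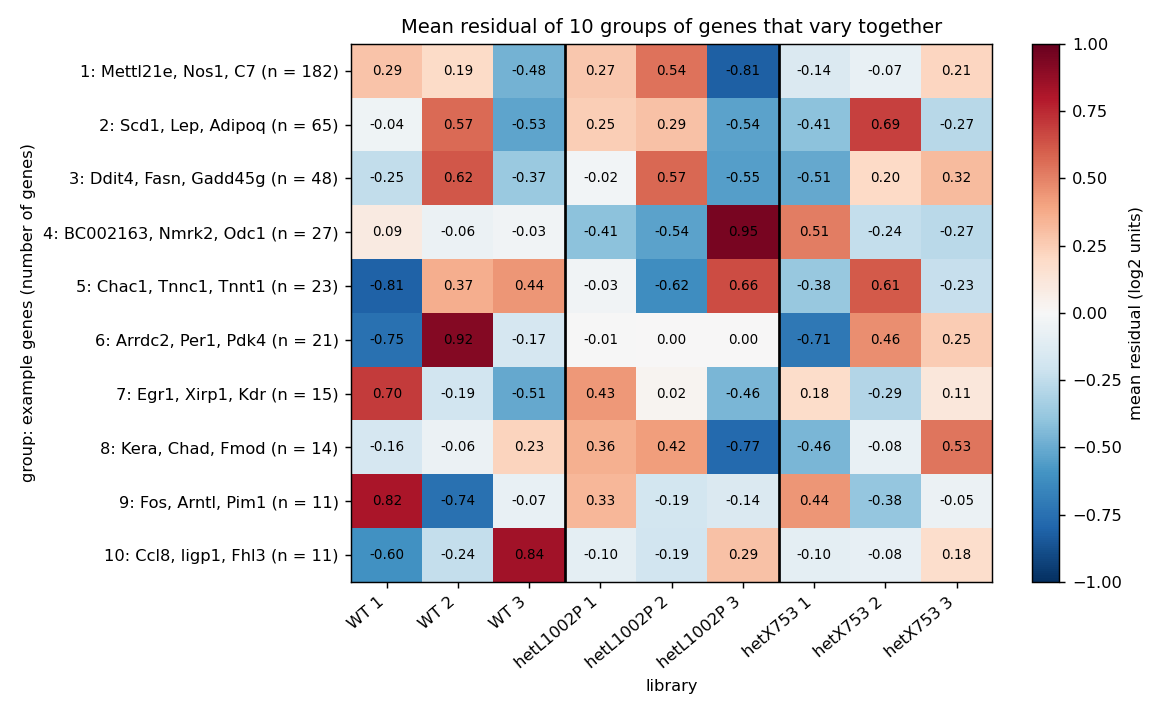
Mean residual (log2 units, colour and printed value) of each of 10 groups of genes that vary together (rows, with example genes and group size) in each library (columns, genotypes parted by black lines). Group 1 is lowest in hetL1002P 3 at -0.81 and in WT 3 at -0.48, group 4 highest in hetL1002P 3 at 0.95, and group 6 ranges from -0.75 in WT 1 to 0.92 in WT 2. In hetL1002P, the mean of group 6 stays between -0.005 and 0.004, though single members vary. There Arrdc2 is highest and Pdk4 lowest in hetL1002P 2.

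With genotype and replicate number as terms, 0 of 12989 genes (0%) were called for replicate number (edgeR quasi-likelihood test, adjusted p under 0.05), 916 had an unadjusted p under 0.05, and DESeq2's likelihood ratio test called 69. Without hetX753 3 the test called 2495 of 13158 genes, and without all 3 hetX753 libraries 2091 of 12684. Leaving out any other single library called 0, and no other genotype was left out whole. Residuals of hetX753 3 ran against those of WT 3 and hetL1002P 3 (r = -0.25 and -0.38). These counts come from the same values as those correlations and are no separate evidence on replicate number.

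Genes close together on a chromosome shared a little more variation than genes apart. The mean correlation of residuals was 0.10 for 864 overlapping pairs, 0.08 for 3812 pairs within 10 kb and 0.07 for 14635 pairs from 10 to 100 kb apart. It was 0.04 from 100 kb to 1 Mb, 0.01 from 1 to 10 Mb and 0.002 for pairs on different chromosomes. The libraries do not mark strand, so reads of overlapping genes cannot be told apart.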

How the data were processed

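Whole gastrocnemius RNA went through the TruSeq RNA v2 preparation, per the labels' protocols. The table the authors deposited holds raw whole-number counts of reads for 24062 gene symbols in 9 libraries. In the submitters' processing notes stand TopHat2 2.0.14, Subread, featureCounts 1.4.6, Bowtie2 2.2.6 and mm10. Which annotation and strand setting were used is not stated there.

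Counts were scaled by TMM (edgeR 4.0.16, R 4.3.3), turned into log2(CPM + 1) and centred by genotype (numpy 2.4.6). The pseudocount of 1 damps the spread of genes near 1 CPM. Lengths and GC content came from the longest GENCODE M21 transcript (11081 genes, 95.9%), coordinates and promoters from RefSeq on GRCm38.p6 (10955 and 8768 genes). The 500 genes of highest SD were joined by average linkage and cut at a mean r of 0.6. For 11 gene pairs, residuals were shuffled within genotypes in all 216 ways, the smallest possible p being 0.00463, and p-values adjusted by Benjamini-Hochberg. With a replicate block, residuals are also constrained within each replicate number. Shuffles within genotypes are then only approximate. A further pair of globin genes was not measured. Correlations within lists and groups share 9 libraries and carry no p.

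Members, the 36 lists, the pairs and the rule for named genes were chosen with earlier results of these data known. Named were the 24 genes of highest SD, the 12 of lowest SD at 50 CPM or more, up to 4 highest members and the lowest of each list, the reference genes, the ends of 3 components, the pairs, 12 of the genes variable in each genotype, and the leading genes of each group. Predicted genes, Riken clones and genes of the sex chromosomes that mark sex were not named. The spread and the replicate test were tested on simulated data. Alternatives were scaling, pseudocount, filter, level neighbours, a replicate block and leaving out libraries. Removing the length and GC trend was added after seeing the data. Results for a few of the genes the rule names are not reported here. The labels do not say what a replicate number marks. Residuals of same-numbered libraries correlated across genes at r = 0.37, 0.42 and 0.63 for WT with hetL1002P, all above 0.1, at 0.06, 0.23 and -0.25 for WT with hetX753 and from -0.38 to -0.006 for hetL1002P with hetX753. By that measure the numbers thus paired WT with hetL1002P throughout. Of the hetX753 libraries only hetX753 2 passed 0.1, with WT 2 at 0.23 but not with hetL1002P 2. Of 9 libraries, 1 correlated best with its own number in both other genotypes.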

Additional observations from a re-analysis of the deposited data

How the results depend on the processing

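The median residual SD of 0.19 was 0.16 to 0.22 under all but one alternative (0.17 to 0.198 with 1 library left out), and 0.14 without both WT 3 and hetL1002P 3. The first component's share stayed between 37.6% and 57.6% under all 18 alternatives. The 159 genes in the top 10% in each genotype were 102 to 150 with 1 library left out. They were 161 without both WT 3 and hetL1002P 3, of which 74 were shared, and 193 with the length and GC trend removed, of which 117 were shared. Genes called for replicate number numbered 0 by the test used, 69 by DESeq2's likelihood ratio test, 7 without a filter on low counts, 27 without both WT 3 and hetL1002P 3, 2091 without hetX753, and 0 to 2495 with 1 library left out.

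With a replicate block the median residual SD was 0.18, and 0 of the 3 passing gene pairs passed: r was 0.58 for Adipoq and Plin1, 0.66 for Fos and Egr1 and 0.91 for Mt1 and Mt2. With 1 library left out 0 to 0 pairs passed. The cause was not tested beyond the smaller number of shuffles. The correlation turned for Myh2 and Myh4 without WT 3 (-0.120 to 0.789 with 1 library left out) and for Pdk4 and Angptl4 without WT 2 (-0.104 to 0.384). With 1 library left out, 81 of 290 named genes had an SD over 1.5 times lower. Counting noise was a median of 40.2% of the variance at 1 to 2 CPM.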
